A study of Homo sapiens with 2 samples.

Results

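The mitochondrial ribosomal protein genes are the nuclear genes whose symbols begin with MRPL (named for the large subunit) or MRPS (named for the small subunit) followed by a number. They were chosen by symbol alone, and 78 genes of the count tables fit, 49 MRPL and 29 MRPS genes. Over both libraries 22850 genes had at least 100 UMIs, these 78 among them. Their mRNA was counted cell by cell in 2 libraries made from naive H9, an embryonic stem cell line of human origin in wide use. The first library (ASO-L1) came from cells given an oligonucleotide antisense to LINE1 RNA, and the second (SO-L1) from cells given its sense control. Both groups grew in RSeT medium, and from transfection with 25 nM of a 6-FAM-labelled oligonucleotide DZNep (10 nM) and TSA (5 nM) were present. Both also had 0.7 µM trans-ISRIB, 5 µM emricasan and 10 µM Y-27632 until 24 hours, and 100000 dye-positive cells were sorted at 48 hours. The sort took only cells that held the dye, so neither library contains untransfected cells as a group of its own. The series title concerns how LINE1 and PRC2 hold back the 8-cell-like (8C) state in human embryonic stem cells.

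Mitochondria keep a small genome that codes for core subunits of the respiratory chain and for the RNAs of their own ribosome. Every protein of that ribosome is coded in the nucleus, made in the cytoplasm and imported. Many of these proteins have a counterpart in bacterial ribosomes, and others are found only in mitochondria. Naive embryonic stem cells are known to respire more than primed ones.

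A barcode counted as a cell when it had 1000 or more detected genes and when the 13 mitochondrially encoded genes gave less than 20% of its UMIs (unique molecular identifiers, one per captured RNA molecule). This left 9084 of 11659 barcodes in ASO-L1 and 6553 of 13070 in SO-L1. In each library the cells formed a class below 2% mitochondrial UMIs, called low-mitochondrial here, and a class at 2% or more. There were 2531 low-mitochondrial and 6553 other cells in ASO-L1, and 1857 and 4696 in SO-L1. Their median mitochondrial shares were 0.133% and 7.31% in ASO-L1 and 0.148% and 8.91% in SO-L1. Their median depths were 44720 and 56296 UMIs in ASO-L1 and 33612 and 45154 UMIs in SO-L1. All 12 general pluripotency markers were detected in each of the 4 groups of cells, with a summed level of 2242 and 4708 CPM in ASO-L1 and 3888 and 5286 CPM in SO-L1. The libraries shared 274 barcode sequences among kept cells. In ASO-L1 these had a median of 126553 UMIs and in SO-L1 1792, and 264 of them fell in the same mitochondrial class in both. With 1 library per group there is no spread between samples and no p-value. "Higher" and "lower" compare these libraries or cells, and intervals are 95% intervals for counting error only.

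All 78 genes were detected in each of the 4 groups of cells. Levels are given as CPM, UMIs per 1000000 with the mitochondrially encoded genes left out of the total. The 3' kit counts each captured transcript once, so CPM needs no division by length. The median gene stood at 83.8 CPM in the low-mitochondrial and 99.9 CPM in the other cells of ASO-L1, and at 82.2 and 98.8 CPM in those of SO-L1. The highest gene stood at 3.2 and 3.58 times the median in ASO-L1 and at 3.64 and 4.82 times in SO-L1. Few genes lay far down, with 4 and 2 genes under 20 CPM in ASO-L1 and 5 and 3 in SO-L1.

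The 5 genes with most UMIs were MRPS21, MRPS34, MRPL20, MRPL12 and MRPL51. They held 15% and 17.8% of the family's UMIs in the low-mitochondrial and the other cells of ASO-L1, and 18.0% and 20.5% in those of SO-L1. MRPS21, a small protein of the small subunit (ENSG00000266472, chromosome 1, 150293720 to 150308979), had 267 CPM in the low-mitochondrial and 358 CPM in the other cells of ASO-L1, and 299 and 403 CPM in those of SO-L1. It has 8 pseudogenes named after it, none of which has its own row in the count tables, so its UMIs may include theirs. MRPL20, a protein that in bacteria acts early in assembly of the large subunit, had 268 CPM in the low-mitochondrial and 327 CPM in the other cells of ASO-L1, and 280.1 and 325 CPM in those of SO-L1. MRPL51, which is found only in mitochondria, had 234 CPM in the low-mitochondrial and 292 CPM in the other cells of ASO-L1, and 216 and 284 CPM in those of SO-L1. Low-mitochondrial cells were lower for all 3 in both libraries.

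At the other end stood MRPL53, MRPL24, MRPL30, MRPL49 and MRPL39. MRPL53 had 1.02 CPM in the low-mitochondrial and 1.16 CPM in the other cells of ASO-L1, and 2.0 and 1.82 CPM in those of SO-L1, from 116, 414, 118 and 354 UMIs. This is far under the next gene, MRPL24, which had 10.8 CPM in the low-mitochondrial and 13.9 CPM in the other cells of ASO-L1, and 13.4 and 18.1 CPM in those of SO-L1. Coordinates throughout are those of GENCODE 29 on GRCh38, matched by gene identifier for all 78 genes.

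**Figure D1:**
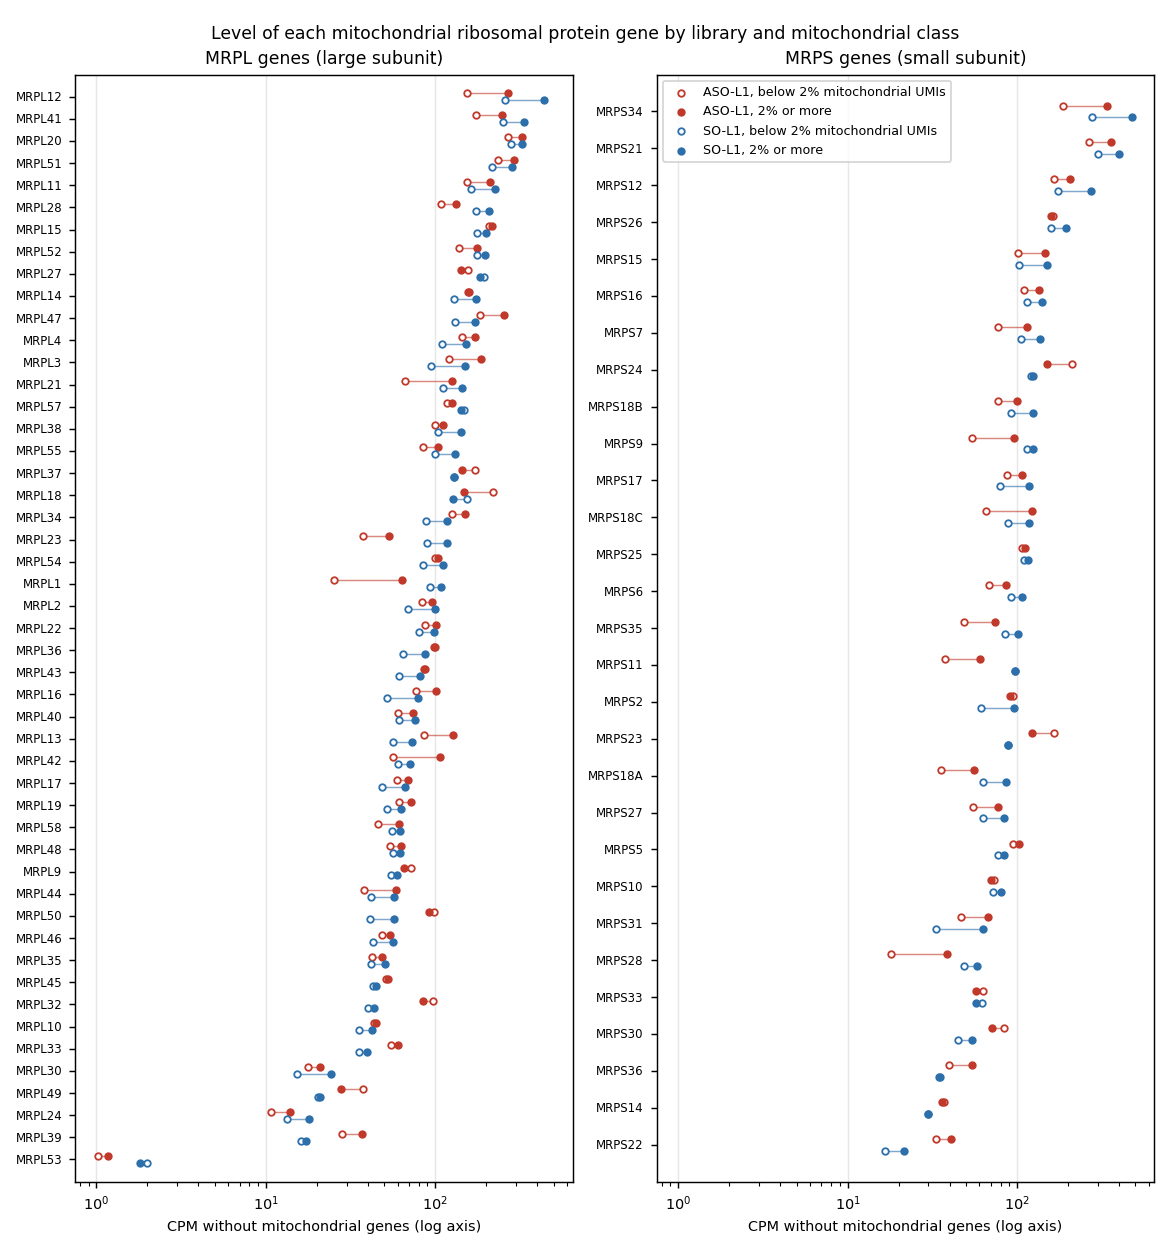
Level of each of the 78 genes, in CPM without mitochondrially encoded genes on a log axis, with MRPL genes on the left and MRPS genes on the right, ordered by their level in SO-L1 cells at 2% or more. Red stands for ASO-L1 and blue for SO-L1, with open circles for low-mitochondrial and filled circles for other cells. Most open circles lie left of their filled partner, and MRPL53 stands alone near 1 to 2 CPM.

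Low-mitochondrial cells carried less mRNA of this family than other cells in both libraries. Summed over the 78 genes, there were 74.1 UMIs (73.9 to 74.3) per 10000 non-mitochondrial UMIs in low-mitochondrial and 88.9 (88.8 to 89.0) in other cells of ASO-L1. In SO-L1 the sums were 74.2 (74.0 to 74.4) and 94.1 (94 to 94.2). The ratio of the summed levels was 0.834 (0.832 to 0.836) in ASO-L1 and 0.789 (0.786 to 0.791) in SO-L1. Both groups of symbols were lower. The MRPL ratio was 0.841 in ASO-L1 and 0.80 in SO-L1, and the MRPS ratio was 0.821 and 0.770.

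Single cells showed the same order. The median low-mitochondrial cell of ASO-L1 had 70.8 family UMIs per 10000 (25th to 75th percentile, 58.4 to 82.3) and the median other cell 89.0 (80.9 to 96.7). In SO-L1 these were 70.9 (57.0 to 83.7) and 94.5 (86.2 to 102). These ranges barely met in ASO-L1 and did not meet in SO-L1. After each cell was thinned to 8000 UMIs, a median of 35 of the 78 genes was detected in low-mitochondrial and 39 in other cells of ASO-L1, and 36 and 40 in those of SO-L1. Without thinning the medians were 67 and 73 in ASO-L1 and 65 and 72 in SO-L1. Thinning left out 296 low-mitochondrial and 224 other cells of ASO-L1 and 303 and 346 of SO-L1 as too shallow.

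The classes also differed at matched depth. Among cells with 40000 to 80000 UMIs, low-mitochondrial cells had 76.2 and other cells 90.0 family UMIs per 10000 in ASO-L1, and 75.1 and 94 in SO-L1. Among cells with 20000 to 40000 UMIs the values were 70.2 and 87.3 in ASO-L1 and 73.8 and 97.2 in SO-L1. Between 10000 and 20000 UMIs there were 60.1 and 65.7 in ASO-L1, and 80.8 and 84.1 in SO-L1, so that in this range the low-mitochondrial cells of SO-L1 stood above their deeper counterparts. Between 5000 and 10000 UMIs there were 49.8 and 55.4 in ASO-L1, and 43.2 and 51.8 in SO-L1, where the other class held 45 cells. In both ranges under 20000 UMIs the gap between the classes was smaller than in the deeper cells.

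Split more finely by mitochondrial share, the summed level of the family varied little below 2% and was higher above it. In ASO-L1 the bins below 2% lay between 69.3 and 75.7 family UMIs per 10000. The bins at 2 to 4%, 4 to 6%, 6 to 8% and 8 to 10% then held 79.5, 84.7, 89.0 and 92.8. In SO-L1 the bins below 2% lay between 72.9 and 76.3, and the same bins above it held 78, 86.3, 91.2 and 95.3. The 10 to 15% bin held 92.6 in ASO-L1 and 97.7 in SO-L1, and the 15 to 20% bin 82.2 and 90.6. The highest bin was therefore below the one before it in both libraries, with 114 cells in ASO-L1 and 117 in SO-L1. The 2 to 4% bin of SO-L1 had 156 cells with a median of 3423 UMIs, of which 103 remained without the shared barcodes, at 77.9. Sums weight deep cells most, and the median of single cells was not level below 2%. In ASO-L1 it was 75.1 in the 0 to 0.1% bin and 59.9 in the 1 to 2% bin, and in SO-L1 73.5 and 55.2. Median depth in these bins was 57877 and 15041 UMIs in ASO-L1, and 42684.5 and 5740 in SO-L1. The part of depth in this was not tested.

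**Figure D2:**
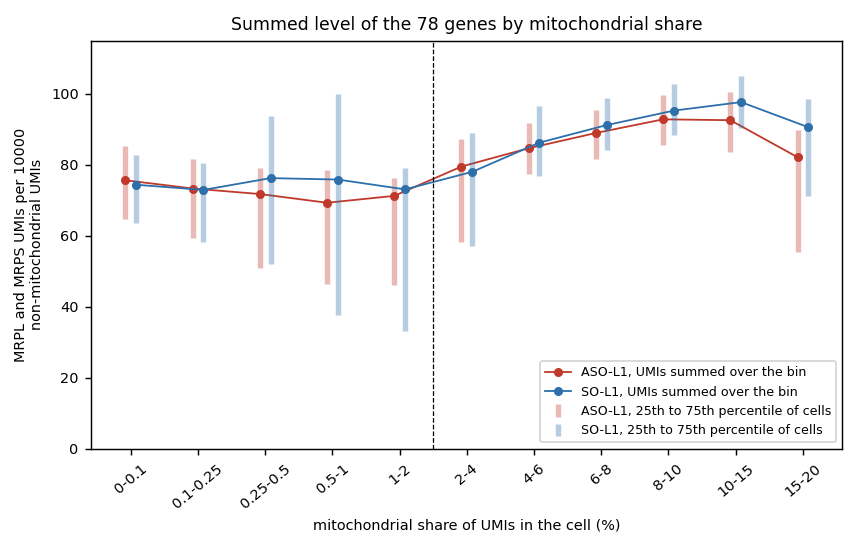
UMIs of the 78 genes per 10000 non-mitochondrial UMIs (vertical axis, from 0) by the mitochondrial share of UMIs in the cell (horizontal axis, 11 bins of unequal width). Red is ASO-L1 and blue SO-L1, points are sums over the cells of a bin, pale bars span the 25th to 75th percentile of single cells and the dashed line marks 2%. The sums of both libraries stay between 69.3 and 76.3 below 2% and reach 92.8 in ASO-L1 and 97.7 in SO-L1 above it.

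Other things differed between the classes as well. MALAT1, a nuclear long noncoding RNA, stood at 6060 CPM in low-mitochondrial and 3278 CPM in other cells of ASO-L1, and at 4846 and 2142 CPM in those of SO-L1. The 15 naive pluripotency markers, all detected in each group, summed to 1933 and 650 CPM in ASO-L1 and 765 and 374 CPM in SO-L1, while the 10 primed markers summed to 562 and 915 CPM and to 772 and 891 CPM. KLF17, KHDC1L and ARGFX of the naive list are also among the 8C marker genes used below, so the sums of those lists overlap. Of the 8 fibroblast markers, 8 and 8 were detected in ASO-L1 with sums of 1350 and 669 CPM, and 6 and 7 in SO-L1 with sums of 453 and 196 CPM. DCN and LUM were at 0 in the low-mitochondrial and LUM in the other cells of SO-L1. Of the 10 trophectoderm markers all were detected except VGLL1 in the low-mitochondrial SO-L1 cells, with sums of 653 and 440 CPM in ASO-L1 and 334 and 394 CPM in SO-L1. The SO-L1 sums hide the single markers. Of the 5 tested there, 4 were higher in low-mitochondrial cells and 1 lower, with a median log2 ratio of 0.69. The 8 mesendoderm markers summed to 196 and 77.4 CPM in ASO-L1 and 39.4 and 18.9 CPM in SO-L1, the 7 endoderm markers to 28 and 27.7 and to 47.6 and 40.2 CPM, and the 6 neural markers to 816 and 499 and to 718 and 602 CPM, with NEUROD1 and SOX1 at 0 in the low-mitochondrial cells of SO-L1. Single endoderm and neural markers also went both ways. Of 5 endoderm markers tested in ASO-L1, 2 were higher and 3 lower in low-mitochondrial cells, with log2 ratios from -1.39 to 3.26. In SO-L1 all 3 tested were higher. Of 4 neural markers tested in each library, 3 were higher and 1 lower. Their log2 ratios ran from -0.78 to 1.27 in ASO-L1 and from -3.00 to 1.51 in SO-L1. The part of the differences between the classes in the family's lower level was not tested. Cytoplasmic ribosomal proteins held 21.2% and 21.7% of UMIs in ASO-L1 and 19.8% and 20.5% in SO-L1, a smaller difference between the classes than that of the mitochondrial family.

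Gene by gene, the family leaned down in low-mitochondrial cells while the typical gene leaned up. In ASO-L1 the median log2 ratio of low-mitochondrial over other cells was -0.29 for the 78 genes (25th to 75th percentile -0.49 to -0.04) and 0.14 over all genes with at least 100 UMIs. In SO-L1 the medians were -0.32 (25th to 75th percentile -0.44 to -0.14) and 0.09. In ASO-L1 13 of 78 genes were at least 1.5-fold lower, against a background of 12.9% of all genes, and 0 were at least 1.5-fold higher, against 27.1%. In SO-L1 8 of 78 were at least 1.5-fold lower, against 6.46% of all genes, and 0 higher, against 20%. The shares lower, 16.7% of the family in ASO-L1 and 10.3% in SO-L1, were a few genes above the background, and most of the family's shift was made of changes smaller than 1.5-fold. Most family genes had far more than 100 UMIs, and the background was not matched for level. Of the 78 genes, 15 lay above a ratio of 1 in ASO-L1 and 6 in SO-L1.

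The gene-by-gene ratios of the libraries went together in part. Across the 78 genes the log2 ratio of low-mitochondrial over other cells in ASO-L1 and in SO-L1 had a Pearson correlation of 0.42, and over the 19337 genes tested in both of 0.71. These 2 ratios use no cell in common, but the genes are not independent replicates. Both ratios were below 1 for 61 genes, both above 1 for 4 and on opposite sides for 13, against 5542 of 19337 on opposite sides over all genes tested in both. MRPS34, MRPL12 and MRPL3 were at least 1.5-fold lower in both libraries, 23.1% of the 13 genes in ASO-L1 and 37.5% of the 8 in SO-L1. Over all genes tested in both, 670 were at least 1.5-fold lower in both libraries, 25.4% of the 2643 in ASO-L1 and 54.2% of the 1237 in SO-L1, so the overlap within the family was no higher than the background.

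The promoters of these 3 genes are shown with those of MRPL18, the gene with the highest ratio in low-mitochondrial cells of both libraries, and of MRPL32 and MRPL1, which lay at opposite ends of the comparison of ASO-L1 with SO-L1 among low-mitochondrial cells. They are RefSeq sequences on GRCh38.p14, the 250 bases before each gene's start, cut short where a coding gene on the other strand begins. RefSeq starts can differ from those of GENCODE. The stretches shown of MRPL32 and MRPL1 lie wholly after the GENCODE starts of these genes, at 42932200 and 77862520. Capitals mark the core letters bound by NRF1 (TGCGCA), ETS factors such as GABPA (CCGGAAG or CTTCCGG) and YY1 (ATGGCGG or CCGCCAT), all known as regulators of genes for mitochondrial proteins.
MRPS34, chr16:1773135-1773206, minus strand: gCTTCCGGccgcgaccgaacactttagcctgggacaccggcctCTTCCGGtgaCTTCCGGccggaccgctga
MRPL12, chr17:81703117-81703366, plus strand: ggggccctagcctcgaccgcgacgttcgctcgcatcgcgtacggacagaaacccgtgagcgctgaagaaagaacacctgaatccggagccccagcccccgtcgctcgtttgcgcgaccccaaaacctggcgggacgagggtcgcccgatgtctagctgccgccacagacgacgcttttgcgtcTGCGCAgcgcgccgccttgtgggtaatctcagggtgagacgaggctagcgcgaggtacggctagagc
MRPL3, chr3:131502972-131503221, minus strand: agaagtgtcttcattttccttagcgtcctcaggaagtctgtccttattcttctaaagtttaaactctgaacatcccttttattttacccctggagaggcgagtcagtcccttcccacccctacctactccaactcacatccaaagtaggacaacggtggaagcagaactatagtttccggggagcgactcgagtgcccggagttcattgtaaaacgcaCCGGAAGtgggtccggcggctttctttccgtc
MRPL18, chr6:159789750-159789811, plus strand: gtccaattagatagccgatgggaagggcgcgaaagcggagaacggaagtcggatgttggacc
MRPL32, chr7:42932224-42932375, plus strand: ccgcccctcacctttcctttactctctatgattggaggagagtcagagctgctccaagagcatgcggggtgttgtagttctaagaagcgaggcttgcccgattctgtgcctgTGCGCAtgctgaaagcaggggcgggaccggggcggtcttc
MRPL1, chr4:77862580-77862829, plus strand: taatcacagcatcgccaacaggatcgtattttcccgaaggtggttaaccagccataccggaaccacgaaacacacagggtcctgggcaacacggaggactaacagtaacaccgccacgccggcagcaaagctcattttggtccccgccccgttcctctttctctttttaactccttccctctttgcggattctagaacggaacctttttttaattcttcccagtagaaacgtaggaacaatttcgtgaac
MRPS34 holds the ETS core 3 times, starting 71, 29 and 19 bases before its RefSeq start, in the 72 bases it has before the divergent gene EME2. The core at 19 bases lies after the GENCODE start of MRPS34, at 1773155. MRPL12 holds the NRF1 core 67 bases before its RefSeq start, MRPL3 an ETS core at 32 bases and MRPL32 an NRF1 core at 40 bases. The stretches shown of MRPL18 and MRPL1 hold none of these letters, and both genes have a core, NRF1 and YY1 in that order, elsewhere in the 300 bases searched. MRPS34 and MRPL32 also have a YY1 core in those 300 bases, outside the stretches shown.

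RefSeq promoters were matched for 69 of the 78 genes, and each was searched on both strands from 250 bases before to 50 after the start. The ETS core lay in 29 (42.0%), the YY1 core in 24 (34.8%) and the NRF1 core in 14 (20.3%). Among all 35116 promoters of that length the shares were 10.3%, 5.55% and 8.24%, and among the 14896 of coding genes 14.4%, 7.81% and 10.9%. At least one core lay in 52 of the 69 (75.4%), against 20.8% of all promoters and 28.2% of those of coding genes, and all 3 together in 0 of 69. Each core was therefore more frequent in the family than among coding genes, though each was absent from most of the family's promoters. The family's promoters held a median of 24 CG pairs per 300 bases, against 22 for coding genes and 14 for all promoters. The background was not matched for CG pairs or for expression in these cells. In ASO-L1 the median log2 ratio of low-mitochondrial over other cells was -0.30 for the 29 genes with the ETS core and -0.24 for the 40 without, and in SO-L1 it was -0.36 and -0.28. With and without the YY1 core the medians were -0.22 and -0.29 in ASO-L1 and -0.25 and -0.39 in SO-L1. With and without the NRF1 core they were -0.21 and -0.29 in ASO-L1 and -0.27 and -0.38 in SO-L1. For ASO-L1 over SO-L1 among low-mitochondrial cells the medians with and without a core were -0.02 and 0.16 for ETS, 0.07 and 0.03 for YY1 and 0.01 and 0.04 for NRF1, and among other cells -0.05 and -0.0043, 0.01 and -0.05, and 0.02 and -0.05 in the same order. A match is a description of letters and not a measured binding site.

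Among the genes lower in both libraries, MRPL12 (ENSG00000262814, chromosome 17, 81703357 to 81707526) codes for the stalk protein that recruits translation factors to the large subunit. It stood at 154 CPM (152 to 156) in low-mitochondrial and 269 CPM (267 to 271) in other cells of ASO-L1, and at 258 CPM (253 to 262) and 438 CPM (435 to 441) in those of SO-L1. The ratios were 0.573 (0.564 to 0.583) in ASO-L1 and 0.588 (0.578 to 0.599) in SO-L1. MRPS34 (ENSG00000074071, chromosome 16, 1771890 to 1773155), a small-subunit protein found only in mitochondria, stood at 187 CPM (185 to 190.0) and 339 CPM (337 to 341) in ASO-L1, and at 279 CPM (274 to 283) and 476 CPM (473 to 479) in SO-L1. Its ratios were 0.553 (0.545 to 0.561) and 0.585 (0.575 to 0.595). For both genes ASO-L1 was below SO-L1 in each class, and for MRPL12 the low-mitochondrial cells of SO-L1 lay close to the other cells of ASO-L1.

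MRPL3 (ENSG00000114686, chromosome 3, 131462212 to 131502983), a core protein near the catalytic centre of the large subunit, showed the opposite order of libraries. It had 119.9 CPM in the low-mitochondrial and 186 CPM in the other cells of ASO-L1, and 94.3 and 149.8 CPM in those of SO-L1. The ratios of low-mitochondrial over other cells were 0.644 (0.632 to 0.656) and 0.63 (0.612 to 0.648), so the drop between classes was like that of MRPL12 although ASO-L1 was the higher library. MRPS31, a small-subunit protein found only in mitochondria, was the lowest in SO-L1, with 46.6 CPM in the low-mitochondrial and 67.4 CPM in the other cells of ASO-L1, and 33.2 and 62.9 CPM in those of SO-L1. Its ratio was 0.528 (0.503 to 0.553) in SO-L1 and 0.692 (0.671 to 0.713) in ASO-L1, the second just short of 1.5-fold lower. It has 4 pseudogenes named after it and its UMIs may include theirs. MRPS12, which sits in the decoding centre and whose bacterial counterpart is known for streptomycin resistance, had 165 CPM in the low-mitochondrial and 206 CPM in the other cells of ASO-L1, and 174 and 273 CPM in those of SO-L1, with ratios of 0.802 (0.789 to 0.815) and 0.639 (0.626 to 0.653).

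In ASO-L1 the lowest ratios belonged to another set. MRPL1 (ENSG00000169288, chromosome 4, 77862520 to 77952790), the protein of the mobile stalk at the exit site, had 25.4 CPM in the low-mitochondrial and 64.1 CPM in the other cells of ASO-L1, and 93.1 and 108 CPM in those of SO-L1. The low-mitochondrial cells of ASO-L1 were the lowest of the 4 groups. The ratio was 0.397 (0.382 to 0.413) in ASO-L1 and 0.864 (0.839 to 0.89) in SO-L1. MRPS28 had ratios of 0.464 (0.442 to 0.486) in ASO-L1 and 0.833 (0.799 to 0.868) in SO-L1, MRPL42 of 0.527 and 0.853, and MRPL21 of 0.531 and 0.768. All 4 passed 1.5-fold lower in ASO-L1 and not in SO-L1, and the difference between the libraries has no replicate check. The other genes past 1.5-fold lower in ASO-L1 alone were MRPS9, MRPS11, MRPS18A, MRPS18C, MRPL44 and MRPS35, at ratios of 0.57, 0.622, 0.639, 0.534, 0.645 and 0.658. In SO-L1, beside MRPS31 and MRPS12, they were MRPL30, MRPS2 and MRPL16, at 0.632, 0.633 and 0.659. MRPL44, MRPS35, MRPS2 and MRPL16 were chosen after their values were seen. MRPS2 stood at 95.1 CPM in low-mitochondrial and 90.5 CPM in other cells of ASO-L1, and at 61.1 and 96.6 CPM in those of SO-L1.

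A few genes ran the other way. MRPL18 (ENSG00000112110, chromosome 6, 159789812 to 159798436), a large-subunit protein reported to help carry ribosomal RNA into mitochondria, had 219 CPM (216 to 222) in low-mitochondrial and 148 CPM (147 to 149) in other cells of ASO-L1, and 155 CPM (152 to 158) and 127 CPM (126 to 129) in SO-L1. The ratios were 1.48 (1.46 to 1.5) and 1.22 (1.19 to 1.248), the highest of the family with at least 500 UMIs in both libraries. TCP1, a cytoplasmic chaperonin subunit that starts 63 bases away on the other strand, had log2 ratios of -0.11 and 0.07, beside 0.57 and 0.28 for MRPL18. MRPS33, a mitochondria-only protein of the small subunit, had ratios of 1.1 (1.07 to 1.13) and 1.08 (1.04 to 1.12).

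4 more genes were named as highest in ASO-L1. MRPS24 had 210.1 CPM in the low-mitochondrial and 152 CPM in the other cells of ASO-L1, and 121 and 125 CPM in those of SO-L1. MRPS23, MRPL49 and MRPL37, which are found only in mitochondria, had ratios of 1.36 (1.34 to 1.39), 1.36 (1.31 to 1.41) and 1.19 (1.17 to 1.21) in ASO-L1. In SO-L1 their ratios were 1.0 (0.969 to 1.03), 0.977 (0.915 to 1.04) and 0.996 (0.971 to 1.02), and that of MRPS24 was 0.969 (0.944 to 0.995). The low-mitochondrial cells of ASO-L1 were thus the highest of the 4 groups for each of these genes, and the 2 classes of SO-L1 were close together. MRPL27 and MRPL57 were named as highest in SO-L1 with ratios of 1.05 (1.03 to 1.07) and 1.04 (1.02 to 1.07). Both fell just below 1 when every cell was weighted equally or when ratios were centred on the median of all genes.

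**Figure D3:**
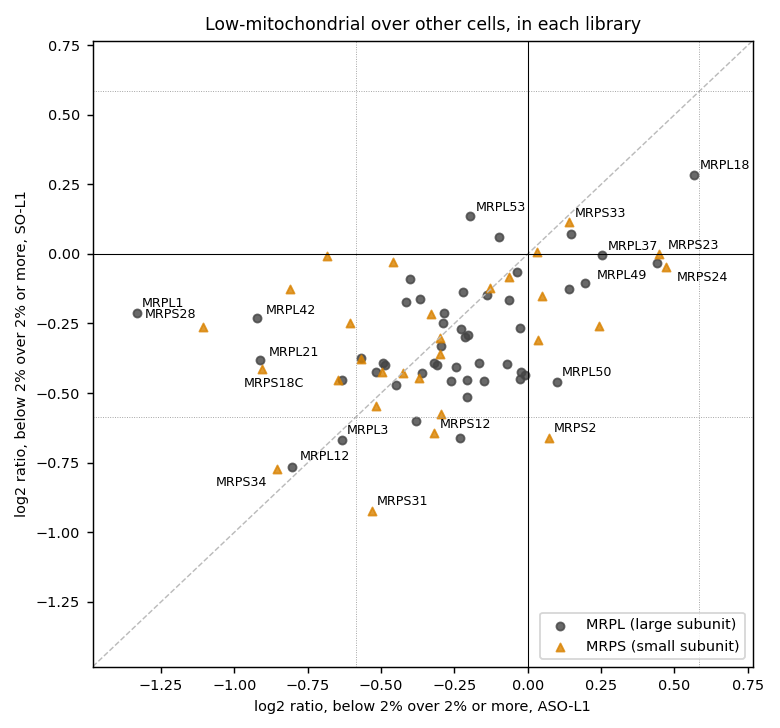
Log2 ratio of low-mitochondrial over other cells in ASO-L1 (horizontal axis) and SO-L1 (vertical axis), a point per gene, circles for MRPL and triangles for MRPS genes. Solid lines mark a ratio of 1, dotted lines 1.5-fold and the dashed line equal ratios. Most points lie in the lower left part, with MRPS34, MRPL12 and MRPL3 past the dotted line on both axes and MRPL18 farthest to the upper right.

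Grouped by symbol, MRPL and MRPS genes had similar medians. The MRPS symbols include MRPS18A and MRPS30, whose proteins sit in the large subunit, and MRPS36. The median log2 ratio of low-mitochondrial over other cells was -0.23 for MRPL and -0.33 for MRPS genes in ASO-L1, and -0.37 and -0.30 in SO-L1. In ASO-L1 6 of 49 MRPL and 7 of 29 MRPS genes were at least 1.5-fold lower, 12.2% and 24.1% against 12.9% of all genes. In SO-L1 4 and 4 were, 8.16% and 13.8% against 6.46%. The 48 genes with a bacterial counterpart had medians of -0.29 in ASO-L1 and -0.38 in SO-L1, and the 29 without one -0.20 and -0.26. MRPS36, left out of both sets because its protein has been placed in the oxoglutarate dehydrogenase complex and not in the ribosome, had 39.6 CPM in the low-mitochondrial and 54.5 CPM in the other cells of ASO-L1, and 34.4 and 35.2 CPM in those of SO-L1. Its ratios were 0.726 (0.703 to 0.75) and 0.979 (0.931 to 1.03).

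Some members have a special place. The MRPS18 genes are 3 paralogs of a single bacterial gene, of which the MRPS18A protein sits in the large subunit and the other two in the small. MRPS18A had 35.6 CPM in the low-mitochondrial and 55.8 CPM in the other cells of ASO-L1, and 62.8 and 85.9 CPM in those of SO-L1. MRPS18B had 77.2 CPM in the low-mitochondrial and 99.9 CPM in the other cells of ASO-L1, and 91.7 and 125 CPM in those of SO-L1. MRPS18C had 65.3 CPM in the low-mitochondrial and 122 CPM in the other cells of ASO-L1, and 88.2 and 117 CPM in those of SO-L1. All 3 were lower in low-mitochondrial cells of both libraries, MRPS18C most in ASO-L1. MRPL58, a ribosome-bound enzyme that frees stalled peptides, had 46.1 CPM in the low-mitochondrial and 61.5 CPM in the other cells of ASO-L1, and 55.3 and 62.3 CPM in those of SO-L1, with ratios of 0.749 (0.727 to 0.772) and 0.887 (0.853 to 0.922). MRPS16, a small-subunit gene mutated in a human respiratory chain disorder, had 109.7 CPM in the low-mitochondrial and 135 CPM in the other cells of ASO-L1, and 114 and 141 CPM in those of SO-L1. Its ratios of 0.814 and 0.812 were close to the family median.

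Between the libraries the family as a whole was nearly level. Over low-mitochondrial cells the summed level in ASO-L1 was 0.999 (0.995 to 1.002) times that in SO-L1, and over other cells 0.945 (0.943 to 0.946) times. The median log2 ratio of ASO-L1 over SO-L1 was 0.03 in low-mitochondrial and -0.04 in other cells, beside -0.01 and -0.06 over all genes tested. In low-mitochondrial cells 12 of 78 genes passed 1.5-fold higher in ASO-L1, against a background of 22.9%, and 11 lower, against 24.9%. In other cells 8 were higher, against 12.2%, and 7 lower, against 15.7%. Over all kept cells 6 were higher, against 16%, and 8 lower, against 18%. Each share of the family was below its background. Summed by symbol, MRPL genes had ratios of 1.03 and 0.978 and MRPS genes of 0.951 and 0.892 in low-mitochondrial and other cells.

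Single genes still stood far apart, in both directions. Both classes come from the same 2 libraries, so the values of the classes are given side by side and are not separate evidence. MRPL32 (ENSG00000106591, chromosome 7, 42932200 to 42948958), a large-subunit protein that the inner-membrane protease AFG3L2 matures, was among the highest in ASO-L1. It had 97 CPM (95.2 to 98.9) in ASO-L1 against 40.3 CPM (38.7 to 41.9) in SO-L1 among low-mitochondrial cells, and 84.7 CPM (83.8 to 85.7) against 43.3 CPM (42.4 to 44.3) among other cells. The ratios were 2.41 (2.31 to 2.52) and 1.96 (1.91 to 2.0). PSMA2, a proteasome gene, starts 23 bases away on the other strand in GENCODE 29. The log2 ratios of PSMA2 were -0.31 in low-mitochondrial and 0.05 in other cells, beside 1.27 and 0.97 for MRPL32. MRPL32 also has a pseudogene and an overlapping gene on the other strand.

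MRPL39 (ENSG00000154719, chromosome 21, 25585656 to 25607517), a mitochondria-only protein of the large subunit, had ASO-L1 over SO-L1 ratios of 1.73 (1.61 to 1.86) in low-mitochondrial and 2.15 (2.07 to 2.23) in other cells. MRPS22, a small-subunit gene mutated in mitochondrial cardiomyopathy, had 1.98 (1.84 to 2.12) and 1.9 (1.83 to 1.96). MRPL50 had 2.38 (2.28 to 2.49) and 1.62 (1.59 to 1.66), and MRPL13, a core protein of the large subunit, 1.52 (1.46 to 1.58) and 1.73 (1.7 to 1.77). These genes were higher in ASO-L1 in both classes. MRPS23, MRPS30, MRPL49 and MRPS24 had ratios of 1.87, 1.87, 1.85 and 1.74 in low-mitochondrial and of 1.37, 1.32, 1.33 and 1.21 in other cells. MRPS30 is found in the large subunit in spite of its name. MRPS36 and MRPL42 passed 1.5-fold higher in other cells, at 1.55 and 1.51, and had 1.15 and 0.93 in low-mitochondrial cells.

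On the lower side, MRPL23 (ENSG00000214026, chromosome 11, 1947278 to 1984522), a protein at the exit of the peptide tunnel, had 37.7 CPM in ASO-L1 against 89.2 CPM in SO-L1 among low-mitochondrial cells, and 53.2 against 117 CPM among other cells. Its ratios were 0.423 (0.406 to 0.44) and 0.455 (0.446 to 0.464). MRPL1 had ratios of 0.273 (0.261 to 0.286) and 0.594 (0.583 to 0.606), the lowest of the family in low-mitochondrial cells. MRPS11, a platform protein of the small subunit, had 0.386 (0.371 to 0.401) and 0.617 (0.605 to 0.629). MRPL46 starts 34 bases from it on the other strand and had ratios of 1.13 (1.08 to 1.19) and 0.968 (0.945 to 0.991). This pair of family members, back to back across 34 bases, thus had unequal ratios between the libraries. MRPL12, with 0.599 (0.586 to 0.612) and 0.614 (0.609 to 0.62), and MRPL28, with 0.62 (0.604 to 0.637) and 0.638 (0.629 to 0.646), were lower in ASO-L1 by much the same factor in both classes. MRPS28 and MRPS9 had ratios of 0.371 (0.351 to 0.393) and 0.477 (0.461 to 0.494) in low-mitochondrial cells and of 0.667 (0.651 to 0.684) and 0.767 (0.754 to 0.779) in other cells.

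**Figure D4:**
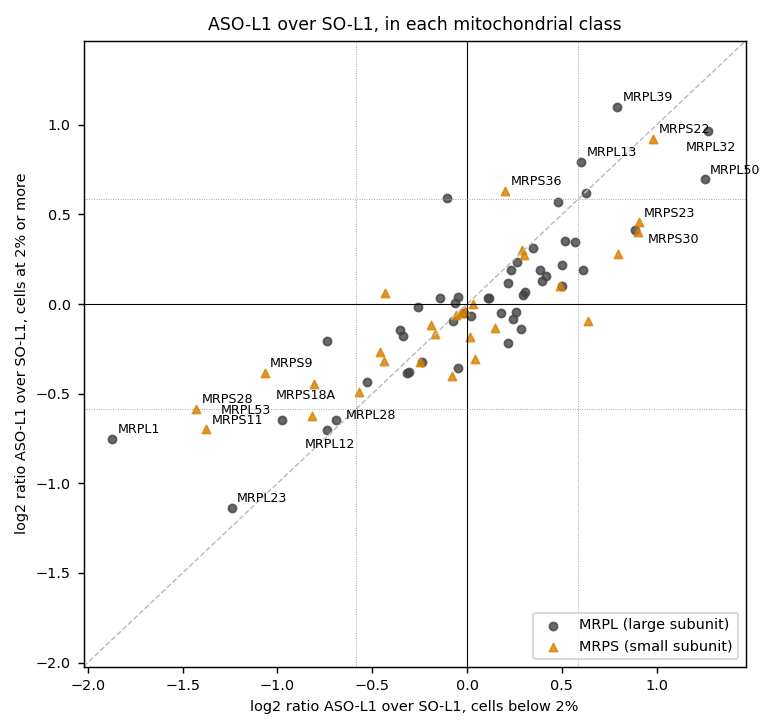
Log2 ratio of ASO-L1 over SO-L1 among low-mitochondrial cells (horizontal axis) and among other cells (vertical axis), a point per gene, circles for MRPL and triangles for MRPS genes. Both axes use the same 2 libraries. Solid lines mark a ratio of 1, dotted lines 1.5-fold and the dashed line equal ratios. MRPL32, MRPL39, MRPS22 and MRPL50 lie at the upper right, and MRPL1 and MRPL23 at the lower left.

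Among low-mitochondrial cells the summed level of the family differed little between cells with more and with fewer 8C marker genes. Low-mitochondrial cells with at least 3 of 20 8C marker genes numbered 619 in ASO-L1 (median 48637 UMIs) and held 74.7 family UMIs per 10000 (74.4 to 75). The remaining 1912 low-mitochondrial cells (median 43544 UMIs) held 73.9 (73.7 to 74.1). In SO-L1 there were 65 such cells with 73.7 (72.7 to 74.7), and 1792 others with 74.2 (74.0 to 74.5). Among these markers MBD3L3 was at 0 in each group of cells, and the summed marker level was 834 CPM in low-mitochondrial and 110 CPM in other cells of ASO-L1, and 197 and 13.9 CPM in those of SO-L1. The differences between 8C marker cells and the rest were under 1 UMI per 10000. Such cells are a range of a marker count and not a cell type, with 268 of the 619 at exactly 3 markers and 566 of the 1912 at 2 in ASO-L1. In SO-L1 38 of the 65 were at exactly 3 and 121 of the 1792 at 2.

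Other lists of mitochondrial protein synthesis had medians below 0, with members on both sides. Median log2 ratios of low-mitochondrial over other cells in ASO-L1 and SO-L1 were -0.36 and -0.26 for 19 translation factors, of which 18 were tested in SO-L1, -0.25 and -0.20 for 22 aminoacyl-tRNA synthetases, and -0.06 and -0.24 for 26 assembly and rRNA modification genes. The synthetase list also holds GATB, GATC and QRSL1, which code for an amidotransferase. The translation factor list also holds LRPPRC, SLIRP, OXA1L, PDF and MTFMT, whose proteins serve other steps. The ratio lay below 1 for 14 and 13 of the translation factors, 15 and 18 of the synthetases, and 14 and 21 of the assembly genes. At least 1.5-fold lower were 2 and 1 of the translation factors, 2 and 1 of the synthetases, and 2 and 3 of the assembly genes, against 12.9% of all genes in ASO-L1 and 6.46% in SO-L1. At least 1.5-fold higher were 0 and 1 of the translation factors, 2 and 1 of the synthetases, and 2 and 0 of the assembly genes, against 27.1% and 20% of all genes. Of these shares of genes lower, only that of the assembly genes in SO-L1, 11.5%, was above its background. The 5 ribosomal proteins with other symbols had medians of -0.14 and -0.41. The lowest of them was AURKAIP1, a small-subunit protein, with ratios of 0.672 (0.664 to 0.68) and 0.678 (0.668 to 0.687). MRM1, which methylates mitochondrial ribosomal RNA, had ratios of 0.548 (0.505 to 0.594) and 0.449 (0.404 to 0.498). TFB1M, the methylase of the small subunit's RNA, had 1.63 (1.59 to 1.67) and 1.31 (1.26 to 1.36), and AARS2, the mitochondrial alanyl-tRNA synthetase, 1.88 (1.81 to 1.95) and 2.16 (2.04 to 2.28). These last 2 genes were higher in low-mitochondrial cells of both libraries.

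The products of mitochondrial translation assemble with nuclear-encoded subunits of the respiratory chain, except in complex II (SDHA to SDHD), which is all nuclear-encoded. The 75 nuclear-encoded genes listed include those of complex II. Their medians were -0.42 in ASO-L1, with 19 (25.3%) at least 1.5-fold lower, and -0.21 in SO-L1, with 1 (1.33%). The lowest were SDHD at 0.42 (0.401 to 0.439) and NDUFS6 at 0.461 (0.454 to 0.468) in ASO-L1, and ATP5MC1 at 0.536 (0.527 to 0.545) in SO-L1. The 25 protein import genes had medians of -0.31 and -0.32, with 3 (12%) and 4 (16%) at least 1.5-fold lower, against 12.9% and 6.46% of all genes. GRPEL1, a cochaperone of the import motor, had ratios of 0.933 (0.906 to 0.961) and 0.459 (0.433 to 0.486), and TIMM9, a carrier of the intermembrane space, of 0.475 (0.451 to 0.50) and 1.06 (1.01 to 1.11). The 84 cytoplasmic ribosomal protein genes tested were nearly level, at -0.03 and -0.08. The 13 mitochondrially encoded genes, which define the classes, had medians of -5.32 and -5.66.

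Genes that control mitochondrial biogenesis varied one by one. As log2 ratios of low-mitochondrial over other cells, in ASO-L1 and then SO-L1, the 18 mitochondrial transcription and RNA processing genes had -0.12 and -0.22 at the median, the 12 chaperones and proteases 0.03 and -0.15, and the 10 biogenesis regulators -0.23 and -0.20. TFAM, the packaging and transcription factor of mitochondrial DNA, had ratios of 0.781 (0.764 to 0.798) and 0.683 (0.657 to 0.711). MYC, a growth regulator, was far apart between the libraries, at 38.5 CPM in ASO-L1 against 4.52 CPM in SO-L1 among low-mitochondrial cells and 34.6 against 10.8 CPM among other cells. TFB2M, a factor of the mitochondrial transcription complex, had ASO-L1 over SO-L1 ratios of 2.49 (2.3 to 2.7) and 1.79 (1.71 to 1.87). The factors whose core letters are shown above lay closer together. NRF1 had 58.7 CPM in low-mitochondrial and 72.9 CPM in other cells of ASO-L1 and 82 and 95.6 CPM in those of SO-L1, GABPA 21.4 and 20 CPM in ASO-L1 and 15.4 and 15.1 CPM in SO-L1, and YY1 114 and 168 CPM in ASO-L1 and 160.1 and 180.4 CPM in SO-L1. NRF1 and GABPA are named outside the rule for named genes.

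**Figure D5:**
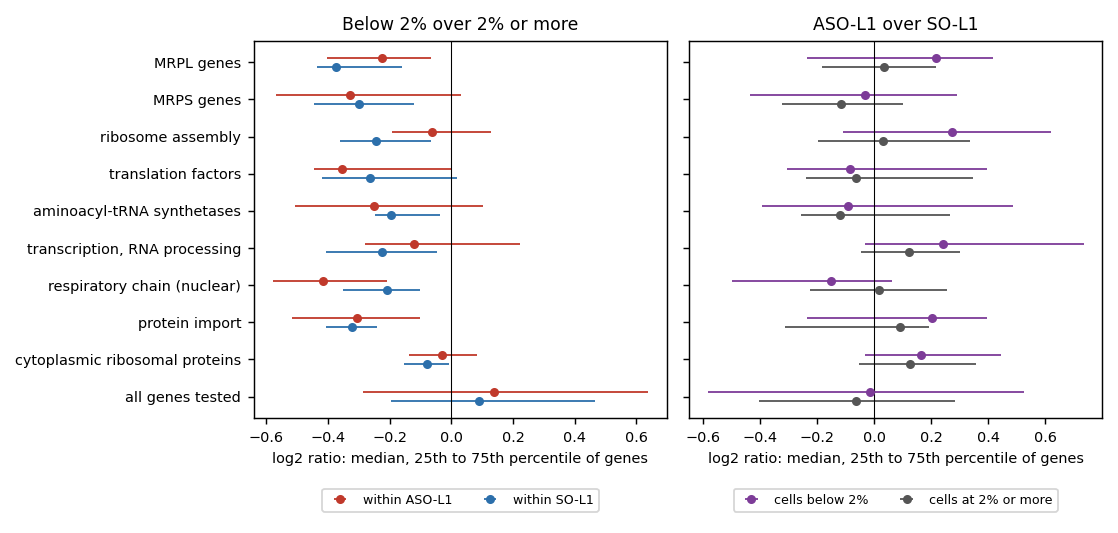
Log2 ratio of low-mitochondrial over other cells within each library (left) and of ASO-L1 over SO-L1 within each class (right) for 10 gene lists. Points are medians and bars span the 25th to 75th percentile of the genes. MRPL and MRPS genes lie left of 0 in both libraries on the left, with medians from -0.23 to -0.37, while all genes tested lie right of 0.

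Family levels went together across single cells. Among cells with 20000 to 80000 UMIs, the summed MRPL and MRPS levels had Pearson correlations of 0.75 in low-mitochondrial and 0.60 in other cells of ASO-L1, and of 0.73 and 0.63 in those of SO-L1. The family's sum and that of the nuclear respiratory chain genes had 0.66 and 0.57 in ASO-L1 and 0.68 and 0.68 in SO-L1. With the cytoplasmic ribosomal proteins the values were -0.06 and 0.07 in ASO-L1 and 0.15 and 0.46 in SO-L1. These are descriptions over 1693 and 5218 cells of ASO-L1 and 1254 and 4052 of SO-L1. The cells of each share a library, and all sums share the cell's total UMIs.

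As genes, the family is compact. The median coding length was 585 bases, against 1296 for 19327 coding genes of GENCODE 29, the median 3' UTR 361 against 794 bases and the median number of exons 5 against 8. The median GC content was 49.6% against 49.8%. The genes lie on 21 chromosomes, with at most 8 on any one. Across the 78 genes, GC content and the log2 ratio of ASO-L1 over SO-L1 in other cells had a Pearson correlation of -0.47, beside -0.09 over the 15676 coding genes tested. In low-mitochondrial cells it was -0.17, beside 0.04 over 14972. Genes of high GC content thus tended to be lower in ASO-L1 in the other cells of this family, and the part of base composition in single ratios was not tested.

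A coding gene on the other strand started within 1000 bases of the start of 29 of the 78 genes. The median log2 ratio of low-mitochondrial over other cells was -0.27 for the family members and -0.11 for their partners in ASO-L1, and -0.40 and 0.04 in SO-L1, with 28 and 27 partners tested. Several partners also work in mitochondria. MRPL47 starts 36 bases from NDUFB5, a respiratory chain gene, and had -0.49 in ASO-L1 and -0.40 in SO-L1, against -0.05 and 0.04 for NDUFB5. MRPL36 starts 34 bases from NDUFS6 and had -0.03 and -0.45, against -1.12 and -0.32 for NDUFS6. MRPS12 and SARS2, the mitochondrial seryl-tRNA synthetase, lie 348 bases apart and had -0.32 and -0.65, against -0.23 and -0.24. Divergent partners thus did not share one ratio. MRPL47, MRPL36 and MRPL46 were chosen after their values were seen. Of the 78 genes, 33 overlap a gene on the other strand. The sources used here do not give whether the counting used strand, and 34 have pseudogenes, so small differences of these genes are uncertain.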

How the data were processed

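The authors deposited UMI counts per gene and barcode for each library, aligned to hg38 and counted by Cell Ranger 7.1.0 per the submitters' processing notes. Not given in the sources used here are the annotation release, the cell calling and the use of introns or strand. Cells were kept with at least 1000 genes and under 20% mitochondrial UMIs, leaving 499106701 UMIs in ASO-L1 and 273349662 in SO-L1. No doublet was called. Counts were summed over cells of a library and class and divided by the non-mitochondrial total (CPM). Ratios carry exact conditional binomial (Clopper-Pearson) 95% intervals, sums exact Poisson ones. Both treat UMIs as independent. A gene was tested from 100 UMIs over both groups, and past 1.5-fold counts as called. Lists are described by medians and counts beside all genes. No test across samples was possible with 1 library per group.

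The members, gene lists and the 2% class cut were chosen with earlier results of these data known. Named genes are, per comparison, the 5 highest and 5 lowest members by the interval bound nearest to 1, the 5 with most and 5 with fewest UMIs, 8 members chosen by role, and in each related list the 2 genes farthest from 1. Python 3.11.15, numpy 2.4.6, scipy 1.17.1, pandas 2.3.3 and matplotlib 3.10.9 were used. The ratio calculation was tested on simulated counts. Alternatives changed the cell filter, class cut, scaling, cell weighting, depth and gene minimum.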

Additional observations from a re-analysis of the deposited data

How the results depend on the processing

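No paired analysis was possible because each group has 1 library. In ASO-L1 the median log2 ratio of low-mitochondrial over other cells was -0.29 as reported, -0.18 with mitochondrial genes kept in the total and -0.43 with ratios centred on the median of all genes. In SO-L1 it was -0.32, -0.19 and -0.41. The other 13 alternatives in each library moved it less. Genes at least 1.5-fold lower numbered 8 in ASO-L1 and 3 in SO-L1 with mitochondrial genes kept in the total, and 23 in ASO-L1 with centring, against 13 and 8 as reported. Of genes at least 1.5-fold higher in ASO-L1 there was 1, against 0 as reported, when cells of 1% to 3% mitochondrial share, the shared barcodes or the 5% of cells with most UMIs were left out, with mitochondrial genes kept in the total, and in cells of 20000 to 80000 UMIs, a range chosen after the data were seen. Medians of ASO-L1 over SO-L1 stayed between -0.04 and 0.03 over all cells, -0.02 and 0.06 over low-mitochondrial and -0.04 and 0.02 over other cells. With mitochondrial genes kept in the total, the family sum per 10000 UMIs fell in the 8 to 10% and 10 to 15% bins, to 84.6 and 82.1 in ASO-L1 and 86.7 and 86.5 in SO-L1, because the larger total enters the division. Single ratios near 1 changed side. For MRPS18C, ASO-L1 over SO-L1 in all cells (log2 -0.03), the value was 0.000534 with the stricter cell filter, 0.0141 with centring and 0.0128 in cells of 20000 to 80000 UMIs. For MRPS36, ASO-L1 over SO-L1 in low-mitochondrial cells (0.20), it was -0.064 after thinning. For low-mitochondrial over other cells of SO-L1, MRPL27 (0.07) had -0.0169 with centring and -0.0161 with equal weights, and MRPL57 (0.06) had -0.0295 and -0.0196. The cause of these changes was not tested. Depth limits MRPL53 most, at 116 UMIs in its smallest group.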

Other observations

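Barcodes left out of the comparisons also held family UMIs. Those with under 1000 genes had 86.3 family UMIs per 10000 non-mitochondrial UMIs in ASO-L1 (2045 barcodes) and 86.8 in SO-L1 (6045 barcodes). Those with at least 20% mitochondrial UMIs had 45.8 in ASO-L1 (530 barcodes) and 47.3 in SO-L1 (472 barcodes), with cytoplasmic ribosomal proteins at 9.44% and 8.25% of UMIs.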
